A study of Mus musculus with 3 samples.

Results

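The genes described here are 8 EGF-type ligands of the ErbB receptors and the 2 ADAM proteases, Adam10 and Adam17, that release such ligands from the cell surface. They were taken by gene symbol from the deposited tables, which gave 10 genes of 47480 in each table, and all 10 were found. The RNA of 3 mammary tumours from mice of the strain FVB-MMTV-Neu was sequenced. This strain carries rat Neu, the ortholog of Erbb2, under control of the promoter of mouse mammary tumour virus. The labels' protocols have tumours implanted orthotopically in syngeneic hosts, grown to 5 mm across and kept for 7 more days without treatment, while the series' design text speaks only of untreated MMTV-Neu mice. All 3 libraries belong to this 1 untreated group, so that no condition could be compared with another. The tumours are called 1, 2 and 3 in the order of deposition. Neither the age of the mice nor whether the tumours came from separate donors is stated in the labels, so the spread between libraries may be partly technical.

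ErbB ligands are made as membrane-bound precursors, and an ectodomain is cut loose by a metalloprotease before it binds a receptor on the same or a neighbouring cell. Amphiregulin (Areg), EGF (Egf) and TGF-alpha (Tgfa) bind the EGF receptor, betacellulin (Btc), epiregulin (Ereg) and HB-EGF (Hbegf) bind the EGF receptor and ErbB4, and the neuregulins (Nrg1, Nrg2) bind ErbB3 and ErbB4. No ligand is known for ErbB2 itself, which signals as the partner of a ligand-bound receptor. ADAM17 is the main sheddase of amphiregulin, epiregulin, HB-EGF and TGF-alpha, and ADAM10 that of EGF and betacellulin. In the mammary gland, amphiregulin acts downstream of the estrogen receptor in the growth of the ducts.

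Library totals for tumours 1, 2 and 3 came to 47449153, 11388769 and 17147394 estimated counts. Per the file names, tumour 1 carried lane number 1 and the other 2 libraries lane number 5, so lane and the difference of tumour 1 cannot be told apart. A lane number alone does not give the flow cell or run. The median gene past the filter spanned 1.37 on the log2 CPM scale over the 3 tumours. Levels are given as CPM, counts relative to library totals scaled by TMM, and intervals are 95% Poisson or binomial intervals that cover counting error only. To pass the filter, a gene had to reach a minimum CPM in each of the 3 libraries, so a gene high in tumour 1 alone could fail. Of the 10 genes, 6 passed (Areg, Hbegf, Tgfa, Nrg2, Adam10 and Adam17). Ereg, Btc, Egf and Nrg1 did not, though each had counts in every library. Of all genes with a count, 53.2% passed.

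Sheddase transcripts stood above those of most ligands per unit length. Divided by the length of the longest annotated transcript, Adam10 had a mean level of 11.5 ± 9.35 and Adam17 of 9.02 ± 3.47 CPM per kilobase (SD, n = 3). Hbegf followed at 5.34 ± 1.46, Tgfa at 5.03 ± 1.29, Areg at 3.47 ± 3.61 and Nrg2 at 2.70 ± 1.31 CPM per kilobase. Nrg1 was at 0.846 ± 1.17 CPM per kilobase. Egf, Btc and Ereg were lowest, at 0.181 ± 0.0287, 0.173 ± 0.260 and 0.143 ± 0.0482 CPM per kilobase. Between neighbours in this order, the step exceeded the larger of their SDs only from Adam17 to Hbegf and from Nrg2 to Nrg1, and both steps held in 3 of 3 tumours. All other neighbours did not differ beyond their spread. With the median transcript of each gene in place of the longest, Tgfa (15.4 CPM per kilobase) and Nrg2 (13.1) moved up to the level of Adam17 (13.4), and 7 of the 10 ranks changed. Adam10 lay at the 64.3 percentile of genes past the filter by level per kilobase, and Hbegf, the highest ligand, at the 45.7 percentile.

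**Figure D1:**
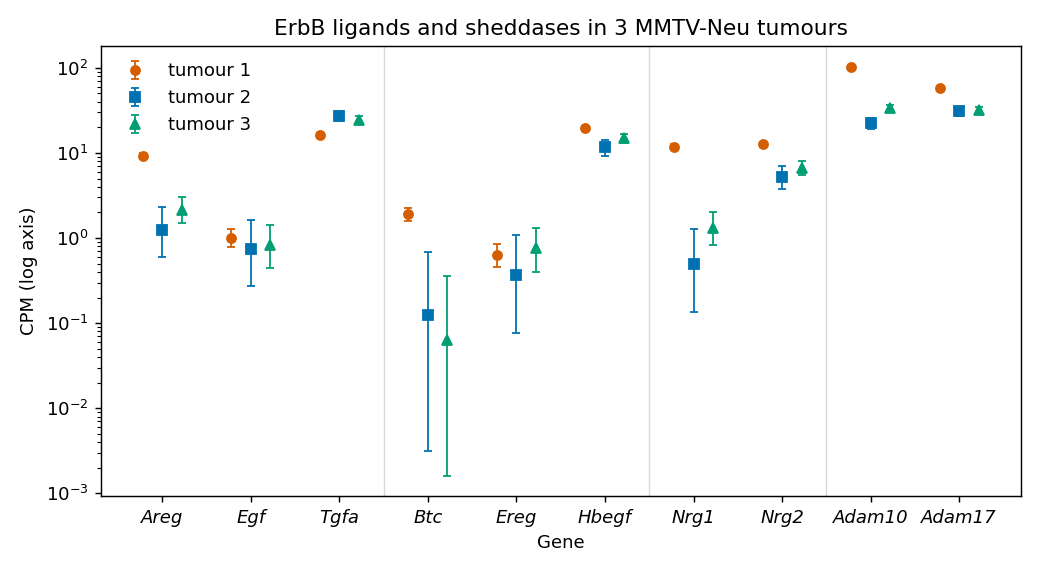
CPM (log axis) of each gene in tumours 1, 2 and 3, with 95% Poisson intervals as bars, ordered as ligands of the EGF receptor, ligands of the EGF receptor and ErbB4, neuregulins and sheddases. Areg, Btc, Nrg1 and Adam10 lie highest in tumour 1, at 9.25, 1.91, 11.9 and 102 CPM, while Tgfa lies lowest there, at 16.2 CPM.

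Most of these ligand and sheddase genes were highest in tumour 1. Counts over 6 or 10 genes were not tested against the shares of all genes given beside them. Of the 6 genes past the filter, 2 (Areg and Adam10) were at least 2-fold above both other tumours in tumour 1, against 22.1% of all genes past the filter, and 0 were at least 2-fold below both, against 20.7%. The same 2 genes were at least 4-fold apart between their highest and lowest tumour, against 29.5% of genes. Tumour 1 held the highest log2 CPM for 5 of the 6, Tgfa being the exception, against 47.1% of genes, and with library totals alone Tgfa was highest there too. Over all 10 genes, Btc and Nrg1 joined Areg and Adam10, giving 4 of 10 at least 2-fold above both others, against 24.0% of all genes with a count. Of the 10, 0 were at least 2-fold below both others, against 16.0%, and 8 were highest in tumour 1, against 53.1%. Between tumours 2 and 3, which carry the same lane number, 0 of the 6 were at least 2-fold above in tumour 3, against 8.81% of genes. Likewise 0 were at least 2-fold below, against 7.39%. Tumour 3 was the higher of this pair for 5 of the 6, again all but Tgfa, against 51.6%, an order that library totals turned for Tgfa and that DESeq2 size factors and the correction for GC content and length turned for Adam17. The difference of tumour 1 from the mean of the others had a median of 0.99 log2 CPM over the 6 genes, and of 0.11 over the 12710 genes past the filter. All 6 varied over the libraries beyond counting noise (chi-square test with Benjamini-Hochberg adjustment), as did 94.2% of genes, so that this count says nothing particular to them. Without tumour 1, 1 of 6 did so and 0 were at least 4-fold apart. The spread of all genes past the filter fell too, with a common biological coefficient of variation of 63.7% with and 32.9% without tumour 1. Without tumour 3, 8 genes passed the filter and 4 of them were at least 2-fold above tumour 2 in tumour 1. No share of all genes was computed for either setting, so these counts cannot be read as particular to the 10 genes. With library totals alone as the scaling, tumour 1 stood at least 2-fold above for 5 of the 6 (all but Tgfa) and for 40.4% of genes, since that scaling moves the median difference of all genes by 0.84 on the log2 scale. After removal of the trend on GC content and transcript length, the 2 genes above were Areg and Nrg2, and Adam10 no longer was.

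Among ligands of the EGF receptor alone, Areg and Tgfa went opposite ways. Areg (chromosome 5, 91139599 to 91148432, 1 annotated transcript) had 640, 10 and 34 counts in tumours 1, 2 and 3. These correspond to 9.25 CPM (8.55 to 10), 1.24 CPM (0.596 to 2.29) and 2.16 CPM (1.5 to 3.02). Tumour 1 lay above both others, and the intervals of the others overlapped. It was 7.44-fold (4.02 to 15.6) above tumour 2 and 4.28-fold (3.03 to 6.24) above tumour 3. Its range of 2.83 log2 CPM was at the 87.4 percentile of genes past the filter. The 3 genes nearest to Areg in their pattern, by distance of centred log2 CPM over only 3 tumours, were Phf6 (0.011), Ireb2 (0.025) and Atp2a2 (0.028).

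Tgfa (chromosome 6, 86195223 to 86275719), which encodes a ligand long known from transformed cells, had 1120, 220 and 389 counts in tumours 1, 2 and 3. It was at 16.2 CPM (15.3 to 17.2), 27.3 CPM (23.8 to 31.2) and 24.7 CPM (22.3 to 27.3). Tumour 1 was thus the lowest, at 0.592 times (0.512 to 0.687) the level of tumour 2 and 0.655 times (0.583 to 0.737) that of tumour 3. Scaling by library totals turned the difference of tumour 1 from -0.68 to 0.16 log2 CPM. Tumours 2 and 3 did not differ beyond counting error, with a ratio of tumour 3 to tumour 2 of 0.904 (0.764 to 1.07). Egf (chromosome 3, 129677565 to 129755316), whose product is abundant in salivary gland, was scarce, with 70, 6 and 13 counts or 1.01, 0.746 and 0.826 CPM in tumours 1, 2 and 3. Its intervals overlapped in every pair of tumours, and the ratio of tumour 1 to tumour 2 was 1.36 (0.593 to 3.82). Of 4 other salivary gland genes, Smr2 had 0 counts throughout, Bpifa2 had 1, 0 and 0 counts, Amy1 was at 2.41, 0.870 and 0.381 CPM, and Dcpp1 at 0.405, 15.5 and 86.3 CPM.

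Since both genes of a pair are measured in the same library, the ratio of their counts does not depend on how libraries are scaled. Areg counts were 0.571 times (0.518 to 0.630) those of Tgfa in tumour 1, 0.0455 times (0.0215 to 0.0852) in tumour 2 and 0.0874 times (0.0597 to 0.124) in tumour 3. The interval of tumour 1 lay wholly above the other intervals. Per unit of longest transcript, Areg was at 2.13 times the level of Tgfa in tumour 1, and at 0.169 and 0.326 times in tumours 2 and 3. With median transcripts, Areg stayed below Tgfa in all 3 tumours, at 0.697, 0.0554 and 0.107 times.

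Of the ligands of both the EGF receptor and ErbB4, Hbegf was expressed in every tumour and Btc was near 0 in tumours 2 and 3. Hbegf, which encodes the precursor that also serves as the diphtheria toxin receptor in humans, had 1378, 93 and 233 counts in tumours 1, 2 and 3, or 19.9 CPM (18.9 to 21.0), 11.6 CPM (9.33 to 14.2) and 14.8 CPM (13.0 to 16.8). Tumour 1 was highest, at 1.72-fold (1.40 to 2.15) the level of tumour 2 and 1.35-fold (1.17 to 1.55) that of tumour 3, below the 2-fold limit. Tgfa counts were 0.813 times those of Hbegf (0.750 to 0.880) in tumour 1, 2.37 times (1.85 to 3.05) in tumour 2 and 1.67 times (1.42 to 1.97) in tumour 3. The balance of this pair thus differed between tumour 1 and each of the others beyond counting error.

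Btc (chromosome 5, 91357261 to 91402994) had 132 counts in tumour 1 and 1 count in each of tumours 2 and 3. At 1.91 CPM (1.60 to 2.26), tumour 1 exceeded the upper limits of 0.692 CPM in tumour 2 and 0.354 CPM in tumour 3. The ratio was 15.4 (2.71 to 611) to tumour 2 and 30.0 (5.30 to 1195) to tumour 3, which fixes its direction but hardly its size. Ereg (chromosome 5, 91074622 to 91093646) had 44, 3 and 12 counts, or 0.636, 0.373 and 0.763 CPM, and its intervals overlapped in all pairs of tumours. Tumour 1 was at 1.71 times (0.547 to 8.59) tumour 2 and at 0.834 times (0.433 to 1.73) tumour 3.

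Areg, Ereg and Btc lie with epigen (Epgn), a further ligand gene, within 375.5 kb of chromosome 5. Epgn had 41, 0 and 3 counts in tumours 1, 2 and 3, or 0.593 CPM (0.425 to 0.804), 0 CPM (up to 0.458) and 0.191 CPM (0.0393 to 0.557), so that its intervals overlapped. Of these 4 neighbours, Areg and Btc were higher in tumour 1 beyond counting error. Epgn was highest there too, with overlapping intervals, which are not a test of its difference. Ereg was highest in tumour 3, or in tumour 1 with library totals as the scaling. The genes on either side, chosen after their values were seen, were also highest in tumour 1. Mthfd2l, which encodes a mitochondrial folate enzyme, was at 16.2, 2.73 and 4.19 CPM in tumours 1, 2 and 3, and Parm1 at 23, 11.3 and 12.4 CPM.

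Of the 10 genes, 6 had a RefSeq promoter sequence (build GRCm38.p6, the assembly also named mm10). The 150 bases before the transcription start are given 5′ to 3′. Of the genes at least 4-fold apart between tumours, Areg, Btc and Adam10 are shown, and Nrg1 had no promoter sequence. The partner sheddase gene Adam17 and Tgfa, which went the other way, are also shown. Areg is shown from chr5:91139449-91139598 (plus strand), Btc from chr5:91402995-91403144 (minus strand), Adam10 from chr9:70678832-70678981 (plus strand), Adam17 from chr12:21373633-21373782 (minus strand) and Tgfa from chr6:86195072-86195221 (plus strand). Capitals mark matches on either strand to the cAMP response element TGACGTCA, the AP-1 element TGANTCA or the TATA box TATAAA.
Areg: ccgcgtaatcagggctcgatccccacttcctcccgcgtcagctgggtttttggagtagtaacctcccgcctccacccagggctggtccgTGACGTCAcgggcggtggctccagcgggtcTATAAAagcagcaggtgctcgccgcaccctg
Btc: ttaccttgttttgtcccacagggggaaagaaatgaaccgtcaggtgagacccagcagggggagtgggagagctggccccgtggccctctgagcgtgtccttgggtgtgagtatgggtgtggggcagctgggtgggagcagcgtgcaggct
Adam10: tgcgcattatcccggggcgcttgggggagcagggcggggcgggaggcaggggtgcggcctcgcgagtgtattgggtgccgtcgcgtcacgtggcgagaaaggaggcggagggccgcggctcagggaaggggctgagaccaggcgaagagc
Adam17: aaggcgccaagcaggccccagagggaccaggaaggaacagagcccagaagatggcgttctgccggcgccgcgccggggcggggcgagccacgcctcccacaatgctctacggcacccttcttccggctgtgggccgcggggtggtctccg
Tgfa: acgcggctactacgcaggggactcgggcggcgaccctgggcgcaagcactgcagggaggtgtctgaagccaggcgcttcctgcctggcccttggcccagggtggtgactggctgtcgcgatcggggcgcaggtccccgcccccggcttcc
The Areg promoter held 1 cAMP response element, which begins 61 bases before the start, and 1 TATA box 31 bases before it, with no overlap between them. Of 32851 promoters of all genes, 1.36% held the cAMP response element, 4.24% the AP-1 element and 7.57% the TATA box in this window. The windows of Btc, Adam10, Adam17 and Tgfa held none of these letters. GC content was 64.7% for Areg, 62.0% for Btc, 72% for Adam10, 71.3% for Adam17 and 72.7% for Tgfa.

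The neuregulin genes Nrg1 and Nrg2 were highest in tumour 1, while Nrg4, which is not among the 10, was highest in tumour 2. Nrg1 (chromosome 8, 31814551 to 32884029), whose product activates ErbB3 and thereby its dimers with ErbB2, had 824, 4 and 21 counts in tumours 1, 2 and 3. This is 11.9 CPM (11.1 to 12.8), 0.497 CPM (0.135 to 1.27) and 1.33 CPM (0.826 to 2.04). Tumour 1 was 24.0-fold (9.32 to 88.1) above tumour 2 and 8.92-fold (5.80 to 14.5) above tumour 3. The range of 4.41 log2 CPM was the widest of the 10 genes. Nrg2, which encodes a neuregulin best known from the nervous system, had 883, 42 and 106 counts, or 12.8 CPM (11.9 to 13.6), 5.22 CPM (3.76 to 7.06) and 6.74 CPM (5.52 to 8.15). Tumour 1 lay above both others, by 2.45-fold (1.79 to 3.42) and 1.89-fold (1.55 to 2.34), and the others overlapped. Removal of the GC and length trend changed the difference of tumour 1 from 1.10 to 2.17 log2 CPM for Nrg2 and from 3.76 to 2.97 for Nrg1. The longest Nrg2 transcript had a GC content of 63.4%, the highest of the 10 genes. Within libraries, Nrg1 counts were 0.933 times (0.848 to 1.03) those of Nrg2 in tumour 1, 0.0952 times (0.0248 to 0.262) in tumour 2 and 0.198 times (0.118 to 0.319) in tumour 3. These count ratios are not corrected for GC content or length. With that trend removed, log2 CPM in tumours 1, 2 and 3 was 3.05, -0.49 and 0.67 for Nrg1. For Nrg2 it was 4.39, 1.82 and 2.64, so that the contrast of tumour 1 in this pair was smaller.

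**Figure D2:**
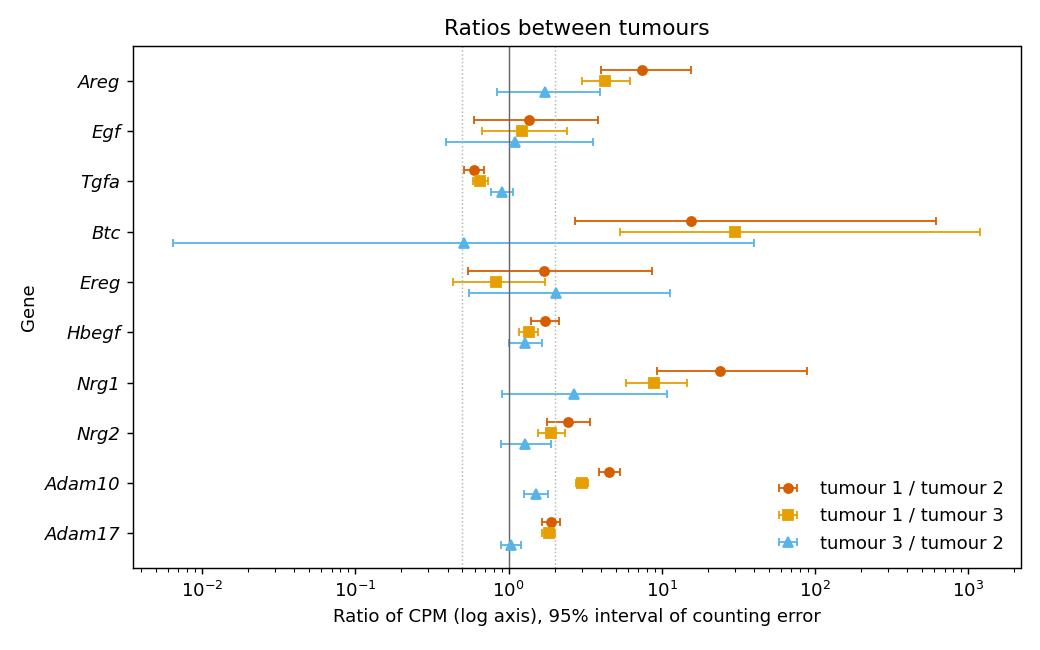
Ratios of CPM between tumours (log axis) for each gene, with 95% intervals of counting error; dotted lines mark 2-fold either way. Both ratios of tumour 1 lie above 2 for Areg, Btc, Nrg1 and Adam10 and below 1 for Tgfa, while the ratio of tumour 3 to tumour 2 has an interval wholly above 1.2 for Adam10 alone.

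Of the sheddases, Adam10 varied more than Adam17. Adam10 (chromosome 9, 70678997 to 70780229), a protease also needed for Notch receptor cleavage, had 7039, 180 and 531 counts in tumours 1, 2 and 3. It was at 102 CPM (99.4 to 104), 22.4 CPM (19.2 to 25.9) and 33.7 CPM (30.9 to 36.7). No intervals overlapped, and tumour 1 was 4.55-fold (3.92 to 5.30) above tumour 2 and 3.02-fold (2.76 to 3.30) above tumour 3. Between the tumours with the same lane number, tumour 3 was 1.51-fold (1.27 to 1.80) above tumour 2. Adam10 was the 1 gene of the 6 that differed between tumours 2 and 3 by more than counting noise once tumour 1 was left out. With the GC and length trend removed, log2 CPM of Adam10 was 6.18, 4.83 and 5.23, so that tumour 1 was less than 2-fold above tumour 3.

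Adam17 (chromosome 12, 21323509 to 21373632), first known as the TNF-alpha converting enzyme, had 4028, 248 and 502 counts in tumours 1, 2 and 3, or 58.2 CPM (56.4 to 60.1), 30.8 CPM (27.1 to 34.9) and 31.9 CPM (29.2 to 34.8). Tumour 1 was 1.89-fold (1.66 to 2.16) above tumour 2 and 1.83-fold (1.66 to 2.01) above tumour 3, short of 2-fold. Tumours 2 and 3 overlapped, with a ratio of tumour 3 to tumour 2 of 1.04 (0.887 to 1.21). The difference of tumour 1 in Adam17 went from 0.89 to 0.23 log2 CPM when the GC and length trend was removed. Within libraries, Adam10 had 1.75 counts (1.68 to 1.82) per count of Adam17 in tumour 1, 0.726 (0.596 to 0.883) in tumour 2 and 1.06 (0.935 to 1.20) in tumour 3. The 3 intervals did not overlap. Exons of Adam17 overlap those of Iah1 on the opposite strand (795, 64 and 150 counts), and exons of Nrg1 those of the noncoding gene Gm26578 (33, 0 and 2 counts). Without a stated strand setting, reads of such pairs cannot be told apart.

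The make-up of the ligand pool followed these differences. Of the counts of the 8 ligand genes, Tgfa took 22.0% in tumour 1 (exact binomial interval 20.9 to 23.2), 58.0% in tumour 2 (52.9 to 63.1) and 48.1% in tumour 3 (44.6 to 51.6). Hbegf took 27.1, 24.5 and 28.8%, with overlapping intervals. Areg took 12.6% in tumour 1 (11.7 to 13.5), 2.64% in tumour 2 (1.27 to 4.80) and 4.2% in tumour 3 (2.93 to 5.82), and Nrg1 16.2% (15.2 to 17.2), 1.06% (0.288 to 2.68) and 2.60% (1.61 to 3.94). By CPM per kilobase of the longest transcript, which allows genes to be compared, the leading ligand was Areg in tumour 1 (30.1%, with Hbegf at 27.2%) and Tgfa in tumours 2 and 3 (46.0 and 36.0%). With median transcripts, Nrg2 led in tumour 1 (37.3%) and Tgfa in tumours 2 and 3 (55.5 and 45.7%). The summed CPM of Areg, Egf and Tgfa was nearly even, at 26.5, 29.3 and 27.7 in tumours 1, 2 and 3. Per kilobase of the longest transcript, this sum was not even, at 11.4, 7.22 and 7.41. The summed CPM of Btc, Ereg and Hbegf was 22.5, 12.1 and 15.6, and that of Nrg1 and Nrg2 24.7, 5.72 and 8.07.

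**Figure D3:**
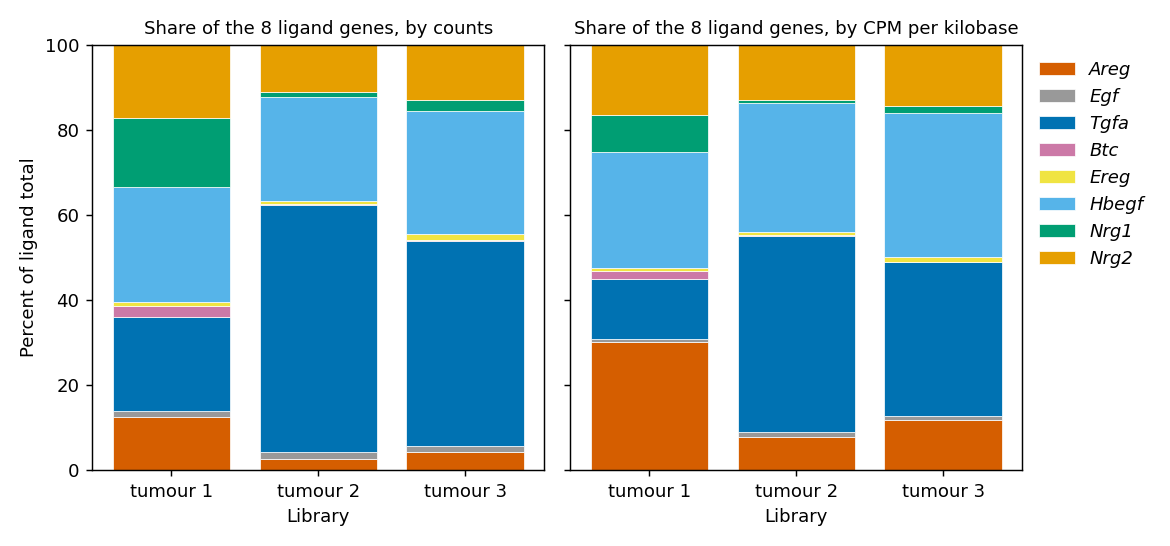
Share of each of the 8 ligand genes in their total within each tumour, in percent, by counts (left) and by CPM per kilobase of the longest transcript (right). Tgfa takes 22.0, 58.0 and 48.1% of ligand counts in tumours 1, 2 and 3, and Nrg1 takes 16.2, 1.06 and 2.60%.

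Of 4 ErbB receptor genes, 3 passed the filter and 0 of these were at least 2-fold apart in tumour 1 in either direction. Of all genes past the filter, 22.1% were above by this rule and 20.7% below. Egfr was at 21.1, 26.3 and 20.4 CPM in tumours 1, 2 and 3, Erbb2 at 75.5, 104 and 93.6, and Erbb3 at 45.0, 45.4 and 75.5 CPM. Since the annotation was not given, whether reads of the rat Neu transgene were counted under Erbb2 cannot be told. Erbb4, below the filter, had 50, 1 and 0 counts. Per count of Egfr, Areg had 0.438 (0.398 to 0.481), 0.0472 (0.0223 to 0.0885) and 0.106 (0.0721 to 0.151), and Tgfa had 0.766 (0.708 to 0.829), 1.04 (0.855 to 1.26) and 1.21 (1.04 to 1.41). Per count of Erbb3, Nrg1 had 0.265 (0.245 to 0.286), 0.0110 (0.00297 to 0.0283) and 0.0177 (0.0109 to 0.0271). The count of Areg per Egfr and of Nrg1 per Erbb3 was thus higher in tumour 1 beyond counting error. Other ligand genes were low. Nrg4 was at 1.71, 4.23 and 1.08 CPM, and Nrg3 had 1, 0 and 0 counts.

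Genes that act with the sheddases went both ways in tumour 1, as did genes at large. Of all genes past the filter, 22.1% were at least 2-fold above both others in tumour 1 and 20.7% at least 2-fold below. The counts of the lists below were not tested against these shares. Of 7 other ADAM protease genes, 6 passed the filter. Adam9 was at least 2-fold above both others, at 67.7 CPM against 13.5 and 28.6, while Adam15 and, chosen after its values were seen, Adam8 were at least 2-fold below. Adam15 was at 81.1 CPM against 729 and 273. Of 15 sheddase partners and inhibitors, 13 passed, with 4 at least 2-fold above and 3 below. Timp1, an inhibitor of metalloproteases, was at 56.4 CPM against 1970.4 and 837, and Timp2 at 106 against 548 and 268. Of the following, Timp3, Frmd8, Rhbdf2, Tspan15, Tspan17 and Pcsk6 were chosen after their values were seen. Timp3, the inhibitor of ADAM17, was at 204 CPM against 55.3 and 69.8. Frmd8, whose product stabilises the iRhom and ADAM17 complex, was at 71.0 CPM against 9.45 and 22.2. Rhbdf2, which encodes an iRhom that carries ADAM17 to the surface, was even at 57.6, 59.9 and 64.4 CPM. Of the tetraspanin partners of ADAM10, Tspan15 was at 12.2 CPM against 3.73 and 2.67 and Tspan17 at 5.20 against 21.9 and 28.2. Pcsk6, a proprotein convertase gene, was at 129 CPM against 7.21 and 18.7.

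Of 12 genes for ligand processing and ErbB feedback, 11 passed the filter. In tumour 1, 2 were at least 2-fold above, against 22.1% of all genes past the filter, and 0 below, against 20.7%. These 2 were the EGF receptor inhibitor gene Errfi1, at 195 CPM against 43.3 and 72.3, and Lrig1, which encodes a negative regulator of ErbB receptors and was chosen after its values were seen, at 52.6 CPM against 13.8 and 25.2. Nkd2, whose product escorts the TGF-alpha precursor to the basolateral surface, was at 231 CPM against 203 and 340.5. Median differences of tumour 1 were 0.58 for the sheddase partners, 0.47 for the processing and feedback genes and -0.77 for the other ADAM genes, beside 0.11 for all genes past the filter.

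**Figure D4:**
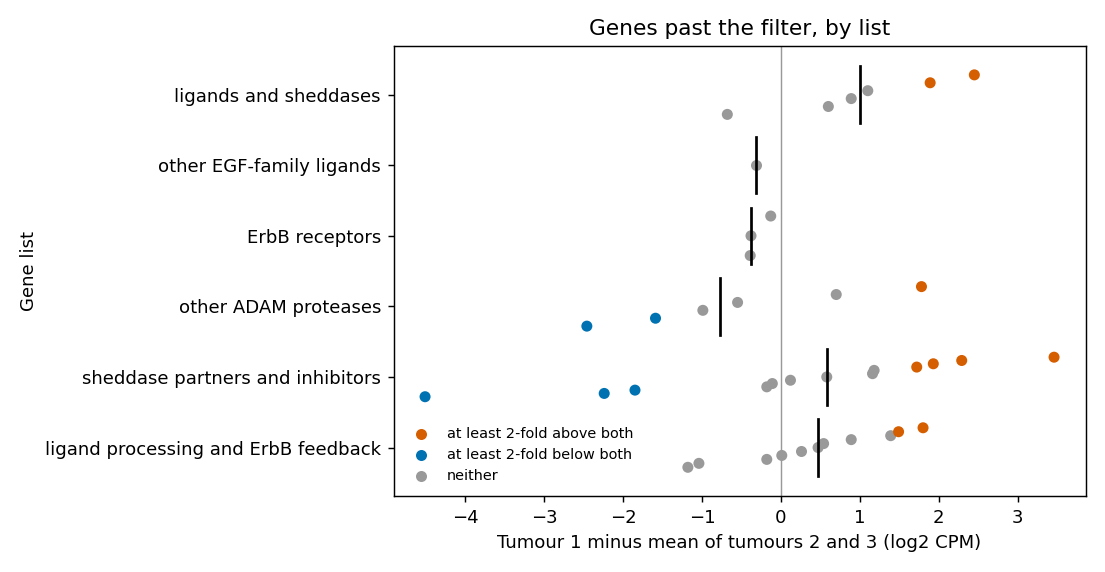
Difference of tumour 1 from the mean of tumours 2 and 3 in log2 CPM for each gene past the filter, by gene list, with the list's median as a black bar; colours mark genes past the 2-fold rule in either direction. The ligands and sheddases have a median of 0.99 with 2 of 6 genes above and 0 below, and the other ADAM genes a median of -0.77 with 1 above and 2 below. Of all genes past the filter, 22.1% were above and 20.7% below.

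Markers of several cell types moved with the same split of tumour 1 from the others, and their part in the results above was not tested. In bulk samples, fewer cells of a type and less RNA per cell cannot be told apart. Of all genes past the filter, 22.1% were at least 2-fold above both others in tumour 1 and 20.7% at least 2-fold below. Counts of markers were not tested against these shares. Luminal epithelial markers, which define the labelled tissue, were present in every tumour, with 7 of 7 past the filter. Their summed levels were 2058, 1651 and 2522 CPM in tumours 1, 2 and 3. In tumour 1, 0 of 7 were at least 2-fold above and 1, Cldn7, was at least 2-fold below, at 136, 278 and 382 CPM. The list went both ways. Krt8 was also lowest in tumour 1, at 407, 734 and 1038 CPM. Cldn3 (419.9, 86.6 and 222 CPM), Epcam (399, 119.6 and 244 CPM), Krt19 (90.6, 54.8 and 26 CPM) and Krt18 (461, 245 and 453 CPM) were highest there. Cdh1 lay between the others, at 144, 134 and 157 CPM. Of the basal and myoepithelial markers, 5 of 7 (Krt5, Krt14, Krt17, Trp63 and Oxtr) were at least 2-fold above in tumour 1, and summed levels were 548, 423 and 274 CPM, with Acta2 at 263, 370.5 and 245 CPM. Schwann cell and nerve markers summed to 344, 70.7 and 119 CPM, of which Sox10, also a mammary epithelial gene, made up 326, 60.4 and 113 CPM. Cldn3, Cldn7, Epcam, Krt19, Cdh1, Krt5, Krt17, Trp63, Oxtr, Adgre1, Cd68, Cdh5, Kdr, Tek, Pdgfra, Dcn, Col3a1 and Lum were named after their values were seen. Macrophage markers went both ways, with 3 of 5 at least 2-fold below in tumour 1 and the others, Adgre1 (13.8, 11.6 and 11.9 CPM) and Cd68 (24.5, 18.3 and 22.8 CPM), highest there. Their sums of 327, 2926 and 1740.3 CPM were carried by C1qa, at 161, 2426 and 1369 CPM. Of 5 endothelial markers, 2 (Pecam1 and Emcn) were at least 2-fold below in tumour 1. Sums were 138, 1029 and 369.9 CPM, of which Pecam1 made up 56.4, 775 and 231 CPM. The other endothelial markers did not follow. Tek was even, at 5.87, 6.46 and 5.59 CPM, while Cdh5 (41.2, 72.5 and 46.3 CPM) and Kdr (19.2, 33.6 and 15.6 CPM) were highest in tumour 2. The mast cell list held Kit, also a luminal progenitor gene, at 184, 4.47 and 4.77 CPM, while Cma1 was at 1.94, 10.9 and 7.31 CPM. Of 4 adipocyte markers, 1, Adipoq, was at least 2-fold above in tumour 1, at 24.3, 3.60 and 3.69 CPM, and the list summed to 257, 163 and 129 CPM. Fibroblast markers summed to 3907, 6379.9 and 3426 CPM, and 2 of 6 (Pdgfra and Dcn) were at least 2-fold below in tumour 1, with 0 above. Col3a1 was highest in tumour 1, at 965, 566 and 402 CPM. Col1a1 (1576, 3695 and 1625 CPM) and Col1a2 (1228, 1803 and 1109 CPM) were highest in tumour 2. Lum was at 43.7, 58.2 and 56.7 CPM. Skeletal muscle markers summed to 2.70, 44451 and 18719 CPM. Of all markers in these 9 lists, only Fcer1a of the mast cell list had 0 counts in a tumour. The ribosomal RNA symbol Rn18s-rs5 took 0.20, 7.87 and 6.68% of counts.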

How the data were processed

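Messenger RNA libraries of 3 tumours were sequenced with paired-end reads of 50 bp. The deposited values are estimated counts by gene symbol from Salmon, per the file headers, with no scaling for depth or length. STAR, SAMtools, Picard and build mm10 are also named in the submitters' processing notes. Versions, annotation and strandedness were not given in the sources used here.

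Counts were rounded, filtered with filterByExpr of edgeR 4.0.16 (R 4.3.3; minimum count 10, minimum total 15), which left 12710 genes, and scaled by TMM. Log2 CPM used a prior count of 2. Each gene was tested against the scaled totals (chi-square, 3 libraries, Benjamini-Hochberg at 0.05), which compares libraries, not conditions. The fold rules were 2-fold from both other tumours and 4-fold between highest and lowest. These steps were tested on simulated data. Transcript lengths came from GENCODE M21 (GRCm38) and promoters from RefSeq. DESeq2 1.42.0 size factors were an alternative.

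All 10 genes were named. Of each pathway list, the 2 highest genes and the one with the largest range were named, or every gene of lists of up to 4, and of marker lists genes among the highest. The members and lists were chosen with earlier results of these data known.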

Additional observations from a re-analysis of the deposited data

How the results depend on the processing

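No paired analysis was possible because there was 1 group of tumours. With library totals as the scaling, 5 genes were at least 2-fold above both others in tumour 1, in place of 2, against 40.4% of all genes. Without a filter, 10 genes were counted in place of 6, of which 4 were at least 4-fold apart. At the main scaling, 37.3% of all genes with a count were that far apart. Of the 10, 5 were at least 2-fold above in tumour 1, against 25.4% of all genes. At a 4-fold limit 1 gene, Areg, was above. Leaving out 1 tumour at a time left 6 to 9 genes past the filter, 1 to 7 differing beyond counting noise, 0 to 3 at least 4-fold apart and 3 to 4 at least 2-fold above in tumour 1. The lowest values, 1 and 0, came without tumour 1, and no shares of all genes were computed for these runs. The cause of these changes was not tested. The median difference of tumour 1 stayed between 0.83 and 1.84 log2 CPM under all alternatives run. DESeq2 size factors, prior counts of 0.5 and 10, a mean CPM of at least 1, the G test and totals without muscle genes and Rn18s-rs5 moved no value by more than the spread between tumours and no count by over 1.5 times. Removing the GC and length trend turned the differences of Ereg (-0.43) and Egf (-0.07) below 0. Counts of 1 to 6 for Btc, Ereg, Egf and Nrg1 in tumour 2, the shallowest library, limit those ratios.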
